A study of Mus musculus with 8 samples.

Results

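The set consisted of 8 genes that are widely used to recognise regulatory T cells: Foxp3, Il2ra, Ikzf2, Lrrc32, Areg, Ccr8, Tnfrsf4 and Tnfrsf18. They were taken by symbol from the gene lists of the gene expression libraries, and all 8 were found among the 32285 genes counted there. Each was followed in Foxp3-positive Cd4 cells, in Foxp3-negative Cd4 cells and in Cd8 cells of 4 pools of mouse bone marrow.

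The libraries came from bone marrow T cells of the Runx1::Runx1t1 mouse model of acute myeloid leukemia, read by droplet single-cell RNA sequencing from the 5′ end with a matched T cell receptor (TCR) library. The Runx1::Runx1t1 group carried the Runx1Runx1t1/+ allele with Mx1-Cre, a Cre recombinase driven by an interferon-inducible promoter that is not restricted to T cells. The control group is given as wild type in the sample labels and as Runx1Runx1t1/+ without Mx1-Cre in the study's methods. Both groups received Poly(I:C), an inducer of interferon, at 5 mg/kg in 4 doses, and were analysed 4 weeks later. Each group had 2 pools (replicates 1 and 2), each mixed from cells of 2 mice, the mice of the groups were sex-matched littermates, and DAPI- mCherry- CD3+ cells were sorted after enrichment of T cells. Since mCherry reports the fusion gene, the sorted T cells are those without the reporter. Nothing in the labels ties a replicate number of one group to that of the other.

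Regulatory T cells restrain other lymphocytes, and Foxp3 is the transcription factor that defines them. They take up interleukin-2 through a receptor whose alpha chain is encoded by Il2ra, display latent TGF-beta on the anchor protein GARP encoded by Lrrc32, and carry the TNF receptor family members OX40 (Tnfrsf4) and GITR (Tnfrsf18), which are also induced on activated conventional T cells. Ikzf2 encodes Helios, an Ikaros family transcription factor, Ccr8 encodes a chemokine receptor of activated tissue regulatory T cells, and Areg encodes amphiregulin, a growth factor of the epidermal growth factor family linked to tissue repair.

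In the GRCm38 genome the members lie on 7 chromosomes, as annotated by GENCODE release M21. Foxp3 spans chrX:7573644-7595245 on the plus strand and overlaps 4 other annotated genes, among them Flicr on the same strand, whose effect on the Foxp3 counts was not tested. Il2ra spans chr2:11642807-11693193, Lrrc32 chr7:98489283-98502181, Areg chr5:91139599-91148432 and Ccr8 chr9:120092114-120094906, all on the plus strand. Ikzf2 spans chr1:69531214-69687245 on the minus strand and overlaps 3 annotated non-coding genes. Tnfrsf4 at chr4:156013843-156016612 and Tnfrsf18 at chr4:156026164-156028895 are neighbours on the plus strand, 9551 bases apart.

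Promoter windows, which reach from 250 bases before to 50 bases after an annotated start, were found in RefSeq (GRCm38.p6) for 6 of the 8 members. The windows were searched on both strands for the letters of 5 motifs and, after the Areg window had been read, for those of the cAMP response element (TGACGTCA). The NFAT (GGAAAA) and STAT (TTCNNNGAA) letters were both found in a window of Foxp3 and in that of Tnfrsf18, and the cAMP response element in that of Areg. Among all 32851 windows, 23.4% held the NFAT letters, 8.30% the STAT letters and 1.79% the cAMP response element. None of the members' windows held the letters of the forkhead (GTAAACA), Runx (TGTGGT) or AP-1 (TGANTCA) motifs, which 3.65%, 16.8% and 7.81% of all windows held. The 3 windows with matches are shown with the matched letters in capitals. In the Foxp3 window, which belongs to the downstream one of its annotated starts, the NFAT and STAT letters overlap.
Foxp3, chrX:7580233-7580532, plus strand: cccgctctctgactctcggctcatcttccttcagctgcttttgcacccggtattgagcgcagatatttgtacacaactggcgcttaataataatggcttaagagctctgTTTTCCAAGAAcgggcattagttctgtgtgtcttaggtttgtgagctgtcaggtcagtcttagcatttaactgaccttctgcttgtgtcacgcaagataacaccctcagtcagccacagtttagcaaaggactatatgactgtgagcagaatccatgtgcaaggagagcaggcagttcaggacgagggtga
Tnfrsf18, chr4:156026072-156026371, plus strand: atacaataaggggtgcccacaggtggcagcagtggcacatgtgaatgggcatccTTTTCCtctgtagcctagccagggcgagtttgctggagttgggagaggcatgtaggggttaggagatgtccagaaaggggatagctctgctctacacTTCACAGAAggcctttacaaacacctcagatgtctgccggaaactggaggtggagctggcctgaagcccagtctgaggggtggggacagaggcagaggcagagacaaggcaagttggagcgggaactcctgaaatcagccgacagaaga
Areg, chr5:91139349-91139648, plus strand: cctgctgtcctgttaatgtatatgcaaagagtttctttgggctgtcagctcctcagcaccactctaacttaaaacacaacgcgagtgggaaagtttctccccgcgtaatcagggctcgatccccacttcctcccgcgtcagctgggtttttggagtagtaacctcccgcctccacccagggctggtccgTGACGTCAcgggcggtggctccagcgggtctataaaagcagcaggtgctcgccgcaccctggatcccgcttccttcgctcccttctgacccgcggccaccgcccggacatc

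The 4 gene expression libraries held between 90958101 and 102883449 unique molecular identifiers (UMIs, each marking 1 RNA molecule), and between 12764 and 13795 barcodes per library were kept as cells. Pairs of libraries shared 1.88% to 2.1% of the barcodes of the smaller library. Classes were gated on UMIs among cells with at least 1 UMI of Cd3d, Cd3e or Cd3g. Foxp3-positive Cd4 cells had at least 1 UMI of Cd4 and of Foxp3 and none of Cd8a or Cd8b1, Foxp3-negative Cd4 cells had Cd4 without Foxp3, Cd8a or Cd8b1, and Cd8 cells had Cd8a or Cd8b1 without Cd4. Foxp3, Cd4, Cd8a and Cd8b1 therefore made the classes. They were not taken out of the genes tested, but their own results between the classes are not read. Levels are given as CPM, the UMIs of a gene per 1000000 UMIs of the class, with the 2 replicates of a group always in the order replicate 1, replicate 2. A lower level in a class can come from fewer positive cells or from less RNA in each, and free RNA in the droplets adds a low background to all classes. Foxp3 UMIs were seen in 2.96% and 3.15% of the Runx1::Runx1t1 barcodes and 1.77% and 1.91% of the control barcodes that had no Cd3 UMI. The median depths of these barcodes were 1266, 1140, 1493 and 1499 UMIs. Their mean Foxp3 level was 11.2 CPM (Runx1::Runx1t1) and 3.41 CPM (control), above the 5.26 and 3.03 CPM of Cd8 cells. They can hold cells as well as free RNA and do not measure the background alone.

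Foxp3 itself marked 582 and 477 Cd4 cells in the Runx1::Runx1t1 pools and 218 and 219 in the control pools. As a share of Cd4 cells this was 22.5% (95% Wilson interval 20.9% to 24.1%) and 19.6% (18.0% to 21.2%) in the Runx1::Runx1t1 pools. In the control pools it was 18.8% (16.6% to 21.1%) and 20.3% (18.0% to 22.8%). The groups overlapped, with means of 21.01% ± 2.06 and 19.5% ± 1.09 (SD, n = 2 pools), and the two-sided exact permutation test gave p = 0.667, where 0.333 is the smallest p that this design allows. With each clonotype counted once the difference was 5.56 percentage points in place of 1.49. With Foxp3-positive T cells lacking any co-receptor UMI added it was -1.18 points. Their Foxp3-negative counterparts were not added, so the means of 30.8% and 32.0% in that setting are raised by its construction and are not shares of Cd4 cells. Wilson intervals here and elsewhere cover counting error only, and p-values over pools measure the spread between pools.

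Within its gate Foxp3 was at 716 and 709 CPM in the Runx1::Runx1t1 pools and at 606 and 518 CPM in the control pools. Positive cells carried 3.85 and 4.37 Foxp3 UMIs each in the Runx1::Runx1t1 pools and 3.25 and 2.92 in the control pools. In all Cd4 cells together, where the gate does not truncate it, the Foxp3 difference between the groups was 0.37 on the log2 scale (SE 0.085, edgeR quasi-likelihood test, Benjamini-Hochberg adjusted p = 0.0832). In Cd8 cells Foxp3 was at 5.02 and 5.51 CPM in the Runx1::Runx1t1 pools and at 3.46 and 2.60 CPM in the control pools. Only 44.6% to 52.0% of all Foxp3 UMIs of a pool lay in the Foxp3-positive Cd4 class, and 21.95% to 36.2% lay in T cells without a co-receptor UMI.

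The first question was how the other 7 members differ inside and outside the Foxp3 gate. All 7 were higher in Foxp3-positive than in Foxp3-negative Cd4 cells in each of the 4 pools, by between 3.09-fold for Tnfrsf18 and 10.2-fold for Lrrc32. Each passed the edgeR quasi-likelihood test with Benjamini-Hochberg adjustment over 12062 genes, in which 22.3% of genes were called in either direction and 11.3% were called higher. The median log2 fold change of the 7 was 2.70, against -0.02 for all genes tested. The members are known markers of the gated cell, and the call of each held in all 15 alternatives tried.

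Il2ra, the interleukin-2 receptor alpha chain (CD25), was at 211 and 137 CPM in the Foxp3-positive Cd4 cells of the Runx1::Runx1t1 pools and at 127 and 122 CPM in those of the control pools. In Foxp3-negative Cd4 cells it was at 24.3 and 10.2 CPM in the Runx1::Runx1t1 pools and at 24.0 and 24.7 CPM in the control pools. The lowest Foxp3-positive value therefore lay well above the highest Foxp3-negative one, and the log2 fold change was 2.90 (SE 0.20, edgeR adjusted p = 1.56e-06). Lrrc32, the docking receptor for latent TGF-beta, was at 93.7 and 81.0 CPM inside the gate in the Runx1::Runx1t1 pools and at 46.2 and 25.1 CPM in the control pools. Outside the gate it was at 6.79 and 4.95 CPM in the Runx1::Runx1t1 pools and at 8.49 and 3.86 CPM in the control pools. Its levels inside and outside did not overlap, and the log2 fold change was 3.35 (SE 0.24, edgeR adjusted p = 2.67e-06).

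Areg, the secreted growth factor of the set, was at 468 and 456 CPM in Foxp3-positive Cd4 cells of the Runx1::Runx1t1 pools and at 190.0 and 278 CPM in those of the control pools. In Foxp3-negative Cd4 cells it was at 40.1 and 31.4 CPM in the Runx1::Runx1t1 pools and at 43.9 and 45.8 CPM in the control pools. The classes were apart in every pool, with a log2 fold change of 3.06 (SE 0.26, edgeR adjusted p = 8.08e-06). Ccr8, the chemokine receptor, was at 380.1 and 379 CPM inside the gate in the Runx1::Runx1t1 pools and at 231 and 122 CPM in the control pools. Outside the gate it was at 49.9 and 38.0 CPM in the Runx1::Runx1t1 pools and at 47.0 and 26.8 CPM in the control pools. The log2 fold change was 2.70 (SE 0.24, edgeR adjusted p = 1.02e-05), and again no pool overlapped.

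Ikzf2, which encodes Helios, was at 420.4 and 475 CPM in Foxp3-positive Cd4 cells of the Runx1::Runx1t1 pools and at 483 and 402 CPM in those of the control pools. Outside the gate it was at 58.5 and 58.7 CPM in the Runx1::Runx1t1 pools and at 153 and 70.1 CPM in the control pools. The value of control replicate 1 stood above the other 3 outside the gate and was still below every value inside it. The log2 fold change was 2.44 (SE 0.20, edgeR adjusted p = 7.33e-06).

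The TNF receptor pair had the smallest folds of the 7. Tnfrsf4 (OX40) was at 1368 and 1308 CPM in Foxp3-positive Cd4 cells of the Runx1::Runx1t1 pools and at 651 and 524 CPM in those of the control pools. Among Foxp3-negative Cd4 cells it was at 249 and 287 CPM in the Runx1::Runx1t1 pools and at 157 and 110.2 CPM in the control pools. Its log2 fold change was 2.17 (SE 0.12, edgeR adjusted p = 3.05e-07). Tnfrsf18 (GITR) was at 839 and 733 CPM inside the gate in the Runx1::Runx1t1 pools and at 597 and 537 CPM in the control pools. Outside the gate it was at 253 and 222 CPM in the Runx1::Runx1t1 pools and at 197 and 166 CPM in the control pools, so that the classes did not overlap for this gene either. Its log2 fold change was 1.63 (SE 0.091, edgeR adjusted p = 4.54e-07).

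**Figure D1:**
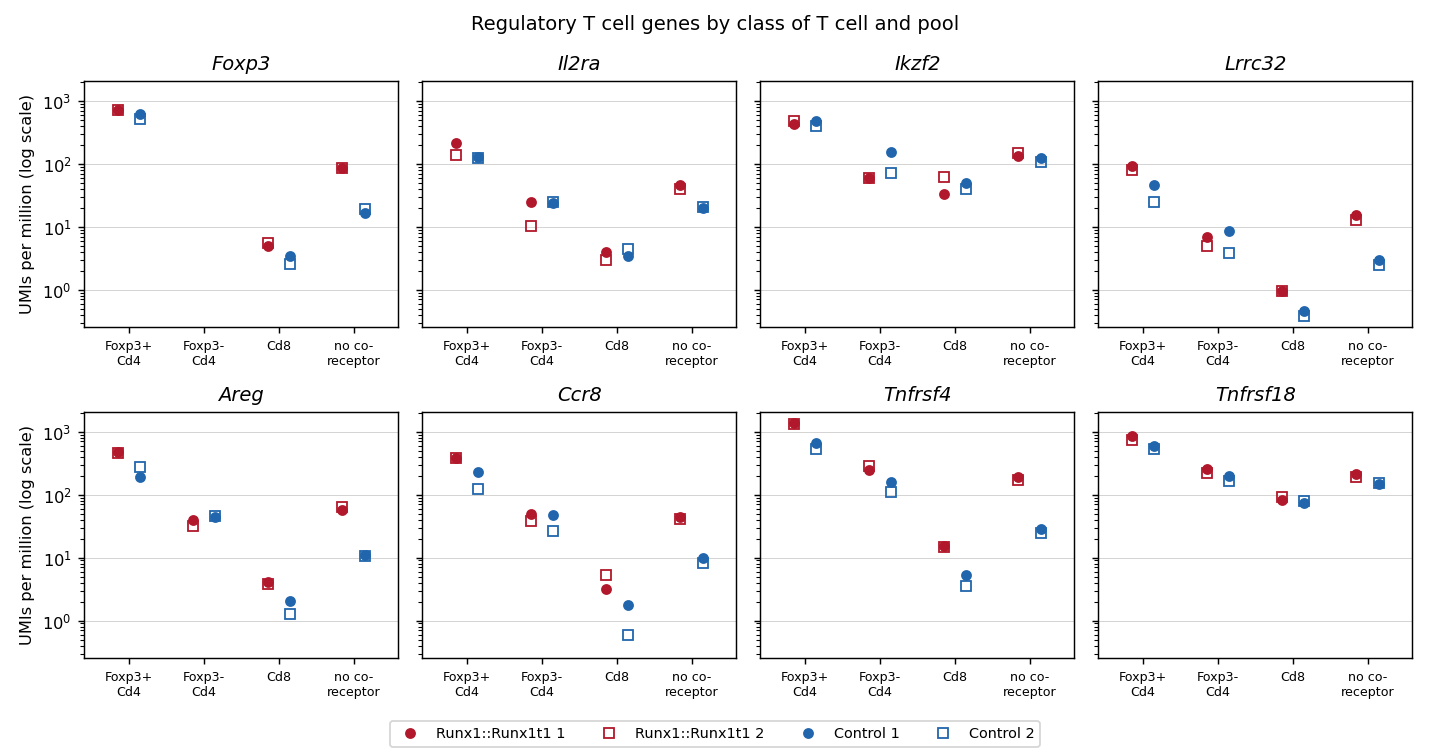
Levels of the 8 genes, in CPM on a log axis, in 4 classes of T cell (horizontal axis) with 1 point per pool (red, Runx1::Runx1t1; blue, control; filled, replicate 1; open, replicate 2). Each of the 7 genes other than Foxp3 was highest in Foxp3-positive Cd4 cells, and Foxp3 has no point in Foxp3-negative Cd4 cells because the gate sets it to 0.

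Cd8 cells lay below Foxp3-negative Cd4 cells for each of the 7 members in each pool, except for Ikzf2 in Runx1::Runx1t1 replicate 2. Il2ra was between 2.93 and 4.51 CPM over the 4 pools, Lrrc32 between 0.383 and 0.961 CPM, and Areg between 1.29 and 4.03 CPM. Ccr8 was between 0.584 and 5.28 CPM and Tnfrsf4 between 3.53 and 15.3 CPM. Tnfrsf18 was between 74.0 and 93.1 CPM and Ikzf2 between 33.5 and 60.7 CPM, with no gap between the groups for Ikzf2. Against Cd8 cells of the same pools, Foxp3-positive Cd4 cells were higher for all 7 members, where 46.8% of the 12062 genes tested were called by edgeR and 23.3% were called higher. The log2 fold changes were 5.04 for Il2ra (SE 0.20, edgeR adjusted p = 4.71e-09), 6.14 for Lrrc32 (SE 0.25, 6.10e-09), 6.64 for Areg (SE 0.29, 7.91e-09), and 6.41 for Ccr8 (SE 0.26, 6.10e-09). They were 6.39 for Tnfrsf4 (SE 0.14, edgeR adjusted p = 3.41e-11), 2.995 for Ikzf2 (SE 0.20, 1.92e-07) and 2.69 for Tnfrsf18 (SE 0.093, 1.60e-09).

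Foxp3-negative Cd4 cells were intermediate. All 7 members were also higher there than in Cd8 cells by the edgeR test, which called 34.5% of genes and 17.5% as higher in this contrast. Tnfrsf4 had the greatest log2 fold change of the 7 at 4.22 (SE 0.13, edgeR adjusted p = 1.02e-09), followed by Ccr8 at 3.71 (SE 0.26) and Areg at 3.58 (SE 0.28). Lrrc32 rose by 2.78 (SE 0.27), Il2ra by 2.14 (SE 0.20) and Tnfrsf18 by 1.06 (SE 0.089). Ikzf2 rose by 0.56 (SE 0.19, edgeR adjusted p = 0.0414) and was higher in 3 of the 4 pools. This call was lost in 5 of 13 alternatives, among them without control replicate 1 (0.27, adjusted p = 0.187), without control replicate 2 (0.56, 0.117) and without Runx1::Runx1t1 replicate 1 (0.57, 0.116).

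Genes that belong to the same biology were read in the Foxp3-positive against Foxp3-negative contrast. Of 28 other genes associated with regulatory T cells, 19 rose and none fell by the edgeR test, with a median log2 fold change of 1.25. The greatest among those that rose in all 4 pools were Itgae, the alpha chain of the E-cadherin-binding integrin, at 4.23 (SE 0.31), Klrg1, an inhibitory lectin-like receptor, at 3.87 (SE 0.23), Il1rl1, the interleukin-33 receptor, at 3.28 (SE 0.42), and Ikzf4, the Ikaros family member Eos, at 2.96 (SE 0.36). Of 11 genes known to be low in regulatory T cells, 9 fell and none rose, with a median of -1.78. Among them were Il2 itself at -2.92 (SE 0.47), the phosphodiesterase gene Pde3b at -2.74 (SE 0.12), Cd40lg, the CD40 ligand, at -2.68 (SE 0.13), and Ifng, interferon gamma, at -2.61 (SE 0.15).

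Of 11 genes of the interleukin-2 receptor pathway, 5 rose and 4 fell. Cish, a feedback inhibitor induced by STAT5, rose by 1.09 (SE 0.12) and Stat5a rose by 0.65 (SE 0.12), while the survival gene Bcl2 fell by 1.60 on the log2 scale (SE 0.084) and the feedback inhibitor Socs3 fell by 0.63 (SE 0.083). Of 12 tested genes of TGF-beta presentation, 3 rose and 1 fell. Itgav, an integrin chain that takes part in releasing TGF-beta, rose by 1.72 (SE 0.19), the receptor gene Tgfbr1 rose by 0.98 (SE 0.11), Tgfb1 rose by 0.18 (SE 0.059) and Tgfbr2 fell by 0.62 (SE 0.063). The other costimulatory TNF receptors had 5 of 6 tested genes higher and none lower, with Tnfrsf9 (4-1BB) at 2.92 (SE 0.42), Tnfrsf8 (CD30) at 2.77 (SE 0.48), Tnfrsf1b at 1.24 (SE 0.11) and Tnfrsf25 at 0.66 (SE 0.13). In the Ikaros family Ikzf4 rose while Ikzf1 fell by 1.14 (SE 0.079).

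Among the partners of the members, Il2 and Tgfb1 passed the test, in opposite directions as given above. Tnfsf18, the GITR ligand, had no UMI in any of the 3 classes. Tnfsf4, the OX40 ligand, was between 0.320 and 0.856 CPM in Foxp3-positive Cd4 cells. In every pool this is below the level that 3 UMIs make in that class, which was between 0.959 and 2.57 CPM. Ccl1, a ligand of Ccr8, was at 10.7 and 41.7 CPM in Foxp3-negative Cd4 cells of the Runx1::Runx1t1 pools and at 0.828 and 0.227 CPM in the control pools. Ccl8, another ligand of mouse Ccr8, was at 1.72 and 1.49 CPM in the same cells of the Runx1::Runx1t1 pools and had no UMI in the control pools. Both were called higher in the Runx1::Runx1t1 group in that class (edgeR adjusted p = 0.0345 for Ccl1 and 0.0455 for Ccl8), and both were singled out after their values were seen.

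Lists for other cells were read in the same contrast. No cycling gene of 8 was called, Tcf7 (-1.71) and Lef1 (-0.58) of the naive T cell list fell, and of the natural killer list Eomes (-3.25), Klrb1c (-2.66) and Ncr1 (-2.54) fell. Cd79b of the B cell list was called higher at 2.31 while Pax5 had no UMI in the Foxp3-positive class. Mpo (-1.32) and Cd68 (-2.001) of the myeloid list fell, as did Lck (-0.38) and Trbc2 (-0.32) of the T cell list. None of the genes tested from the erythroid, basophil and mast cell, or group 2 innate lymphoid cell lists was called, and no platelet gene passed the filter on low counts. Outside the lists, the greatest rises were for Hsbp1l1 (8.10), the muscle gene Ky (5.76), Smarcd3 (4.90), Nckap5 (4.82) and Fam110c (4.57), of which Hsbp1l1 had no UMI in Foxp3-negative Cd4 cells, so that its fitted value is not a measure of size. The 5 greatest falls were for Gm2663, Cox6a2, S1pr5, St6galnac2 and Gm50228, which had no UMI in the Foxp3-positive class of any pool.

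The likeness of other genes to the members was measured by Pearson's r of log2(CPM + 1) over 16 sums, the 4 pools by 4 classes (the 3 above and T cells without a co-receptor UMI), among 11961 genes. The points share libraries, and the classes are defined by Foxp3. Il2ra was most like Tspan17 (0.987), Rgs2 (0.986) and Psen2 (0.984), and Ikzf2 was most like Zfp36l1 (0.982), 2310015A10Rik (0.978) and Wls (0.978). Lrrc32 was most like Srgn (0.982), Snx18 (0.979) and C1qtnf12 (0.978), and Areg was most like Ecm1 (0.992), Gadd45b (0.989) and Rora (0.986). Ccr8 and Tnfrsf4 were among the 3 genes most like each other (0.989), with Itm2c close to both (0.989 and 0.985), Zbtb1 next to Ccr8 (0.989) and the costimulatory receptor gene Icos next to Tnfrsf4 (0.985). Tnfrsf18 was most like C1qtnf12 (0.989), Ebi3 (0.982) and Rab11fip1 (0.982), and its likeness to its chromosomal neighbour Tnfrsf4 was 0.945.

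To compare cells of unlike depth, each cell was thinned to 2000 UMIs, which left out 12, 10, 6 and 8 shallower cells of the Foxp3-positive class. At least 3 of the 7 members other than Foxp3 were then detected in 65.1% (95% Wilson interval 61.1% to 68.9%) and 69.0% (64.6% to 73.0%) of Foxp3-positive Cd4 cells of the Runx1::Runx1t1 pools. In the control pools the share was 52.8% (46.1% to 59.4%) and 44.5% (38.0% to 51.3%), below both Runx1::Runx1t1 pools. In Foxp3-negative Cd4 cells it was 7.51% (6.42% to 8.76%) and 7.37% (6.28% to 8.62%) in the Runx1::Runx1t1 pools and 10.4% (8.55% to 12.5%) and 4.81% (3.55% to 6.48%) in the control pools, with no separation of the groups. In Cd8 cells it was 0.777% (0.593% to 1.02%) and 0.752% (0.576% to 0.983%) in the Runx1::Runx1t1 pools and 0.459% (0.315% to 0.666%) and 0.194% (0.113% to 0.331%) in the control pools. T cells without a co-receptor UMI lay between, with 13.1% (11.9% to 14.5%) and 12.3% (10.8% to 14.1%) in the Runx1::Runx1t1 pools and 2.96% (2.50% to 3.51%) and 2.92% (2.45% to 3.47%) in the control pools.

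**Figure D2:**
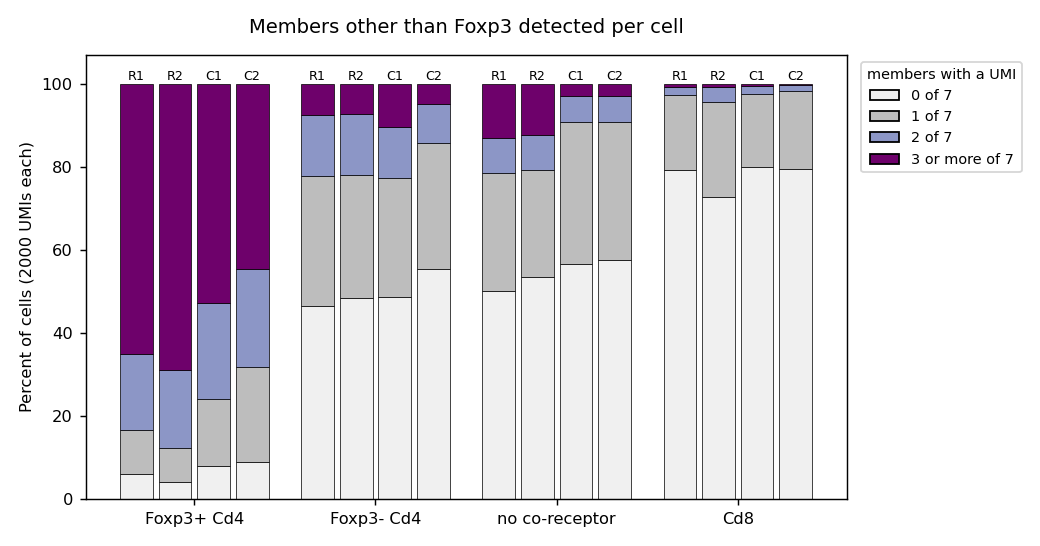
Percent of cells, each thinned to 2000 UMIs, in which 0, 1, 2, or 3 or more of the 7 members other than Foxp3 had a UMI, by class and pool (R1 and R2, replicates 1 and 2 of the Runx1::Runx1t1 group; C1 and C2, of the control group). In Foxp3-positive Cd4 cells the share with 3 or more ran from 44.5% to 69.0%, and in Foxp3-negative Cd4 cells from 4.81% to 10.4%.

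Pairs of members were also counted in the same cells. Over the 1460 thinned Foxp3-positive Cd4 cells, Areg and Ccr8 were found together in 190 cells where 148 were expected from their separate shares, a ratio of 1.28. Ccr8 with Tnfrsf4 gave 1.22, Ccr8 with Tnfrsf18 1.19, Ikzf2 with Areg 1.19 and Ikzf2 with Ccr8 1.17. Tnfrsf4 was found in 86.6% of the cells with Ccr8 and in 63.9% of those without. The 10 pairs among Ikzf2, Areg, Ccr8, Tnfrsf4 and Tnfrsf18 lay between 1.08 and 1.28, each above 1 in all 4 pools. Pairs with Lrrc32 lay between 0.97 and 1.13 and pairs with Il2ra between 1.04 and 1.17, and of these only Il2ra with Lrrc32 was above 1 in all 4 pools. These ratios were not tested, since cells are not replicates.

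**Figure D3:**
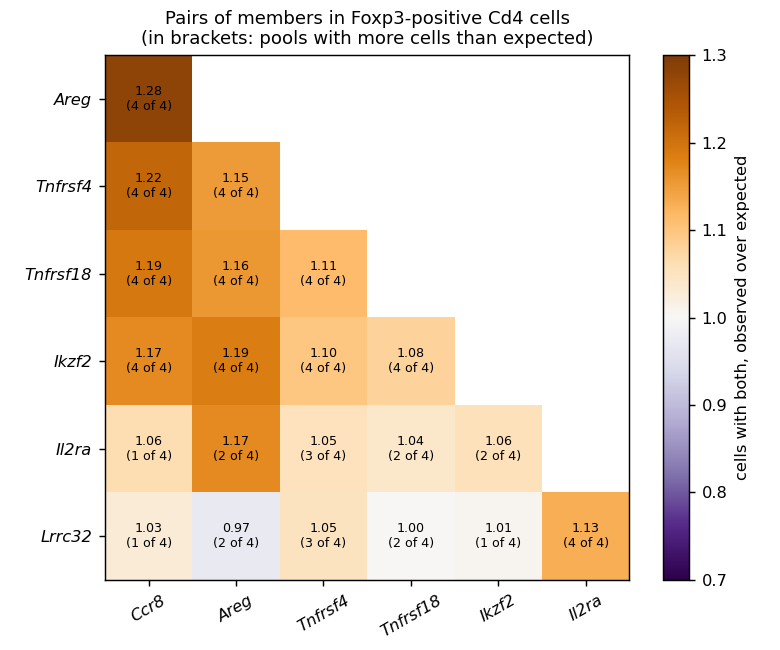
Ratio of observed to expected cells with both members of a pair, over 1460 Foxp3-positive Cd4 cells thinned to 2000 UMIs, with the number of pools in which the observed count was higher in brackets. Pairs among Ccr8, Areg, Tnfrsf4, Tnfrsf18 and Ikzf2 ran from 1.08 to 1.28 with 4 of 4 pools higher, while pairs with Lrrc32 ran from 0.97 to 1.13.

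The comparison of the study, Runx1::Runx1t1 against control, was then made within each class, with 2 pools against 2. In Foxp3-positive Cd4 cells 6 of the 7 members (all but Ikzf2) were higher in both Runx1::Runx1t1 pools than in both control pools, as were 19.1% of all genes tested. Of the 7, Tnfrsf4 alone passed the edgeR test, in which 11 of 9413 genes (0.117%) were called, 10 of them higher. Tnfrsf4 was at 1368 and 1308 CPM against 651 and 524 CPM, a log2 fold change of 1.21 (SE 0.12) or 2.32-fold (edgeR adjusted p = 0.0198, between 4.55e-14 and 0.158 over 15 alternatives). Positive cells carried 8.43 and 8.84 Tnfrsf4 UMIs each in the Runx1::Runx1t1 pools and 4.61 and 3.88 in the control pools, and at 2000 UMIs a cell the share with a Tnfrsf4 UMI was 74.2% (95% Wilson interval 70.5% to 77.6%) and 79.0% (75.1% to 82.5%) against 59.9% (53.2% to 66.3%) and 56.4% (49.6% to 62.9%). The call was lost without a filter on low counts and held in the other 14 alternatives.

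Lrrc32, Areg and Ccr8 had differences near that of Tnfrsf4 with a wider spread between control pools. Lrrc32 differed by 1.32 on the log2 scale (SE 0.23, edgeR adjusted p = 0.0584), Areg by 0.997 (SE 0.17, edgeR adjusted p = 0.0584) and Ccr8 by 1.13 (SE 0.22, edgeR adjusted p = 0.0810). These 3 were not called in the comparison as designed, and were called in 8, 9 and 6 of 15 alternatives, including each of the 4 that left out 1 pool, where far more genes passed. Tnfrsf18 differed by 0.50 (SE 0.12, edgeR adjusted p = 0.124) and Il2ra by 0.51 (SE 0.20, edgeR adjusted p = 0.405), the latter with Runx1::Runx1t1 replicate 1 at 211 CPM above the other 3 pools, and without Runx1::Runx1t1 replicate 2 it was called (0.81, edgeR adjusted p = 0.0240). Tnfrsf18 was called without control replicate 1 (0.56, edgeR adjusted p = 0.00742) and without Runx1::Runx1t1 replicate 2 (0.61, 0.0476). For Ikzf2 the difference was 0.04 (95% interval -0.19 to 0.27, edgeR adjusted p = 0.945), and the pools of the groups overlapped.

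Several measurements moved with the group inside the gate. The summed level of the 5 basophil and mast cell markers was 65.9 and 120.5 CPM in the Runx1::Runx1t1 pools and 0 in the control pools, nearly all of it Cpa3 (64.9 and 116 CPM), while Fcer1a and Prss34 were at 0 in every pool. Without the 64 and 84 cells that held such a UMI, Areg was at 470.0 and 433 CPM in the Runx1::Runx1t1 pools, against 190.0 and 278 CPM in the control pools. The summed level of the 8 cycling genes was 232 and 310.4 CPM in the Runx1::Runx1t1 pools and 319 and 888 CPM in the control pools, with no gene of the list at 0, and its part in the differences was not tested. Of 27 tested other genes associated with regulatory T cells none was called between the groups in this class (Tnfrsf9 0.99, edgeR adjusted p = 0.0584; Il10 1.45, 0.0904), and their median difference was 0.37 against -0.01 for all genes.

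In Foxp3-negative Cd4 cells Tnfrsf4 was again the only member called, where edgeR called 3.04% of 11267 genes and 1.85% as higher. Its 249 and 287 CPM in the Runx1::Runx1t1 pools stood above the 157 and 110.2 CPM of the control pools, with a log2 fold change of 1.05 (SE 0.14, edgeR adjusted p = 0.0134, called in 13 of 13 alternatives). Tnfrsf18 differed by 0.44 (SE 0.11, edgeR adjusted p = 0.0791), and was called without control replicate 1 (0.53, 0.0491) and without Runx1::Runx1t1 replicate 2 (0.54, 0.0255). Ikzf2 lay lower in the Runx1::Runx1t1 group by -0.88 (SE 0.27, edgeR adjusted p = 0.134), a difference that was largest without control replicate 2 (-1.30, adjusted p = 4.08e-05) and least without control replicate 1 (-0.25). It was also called without Runx1::Runx1t1 replicate 1 (-0.89, adjusted p = 0.00100) and without Runx1::Runx1t1 replicate 2 (-0.87, 0.0298). The remaining 4 members differed by -0.45 (Il2ra), -0.28 (Areg), -0.04 (Lrrc32) and 0.30 (Ccr8), with edgeR adjusted p between 0.324 and 0.970, and without Runx1::Runx1t1 replicate 1 Il2ra (-1.22, 4.04e-05) and Areg (-0.48, 0.0481) were called lower. Both Runx1::Runx1t1 pools lay above both control pools for 2 members (20.7% of all genes) and below for 2 (31.3%).

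Of the other genes associated with regulatory T cells, 8 of 27 were called higher in the Runx1::Runx1t1 group in Foxp3-negative Cd4 cells and none lower. They were Tigit (1.37), Il10 (1.34), Entpd1 (0.99), Tnfrsf1b, Prdm1, Batf, Irf4 and Maf, genes that effector T cells also express. In all Cd4 cells together Tnfrsf4 was the member called, at 1.15 (SE 0.11, edgeR adjusted p = 0.00614), where 2.11% of 11640 genes were called and 1.38% were called higher. Here Areg was called without control replicate 2 (0.83, edgeR adjusted p = 0.0194) and Ccr8 and Lrrc32 without control replicate 1 (1.25, 0.00571, and 1.42, 0.0337). Ikzf2 was called lower without control replicate 2 (-0.59, edgeR adjusted p = 0.0221).

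In Cd8 cells 5 of the 7 members (Lrrc32, Areg, Ccr8, Tnfrsf4 and Tnfrsf18) lay higher in both Runx1::Runx1t1 pools than in both control pools, as did 33.6% of all genes. None was called by edgeR, which called 16 of 13330 genes (0.120%). At an unadjusted p under 0.05, 4 of the 7 passed, as did 21.4% of all genes. Tnfrsf4 was at 15.3 and 14.9 CPM against 5.33 and 3.53 CPM, a difference of 1.71 (SE 0.21, edgeR adjusted p = 0.0639), and DESeq2 called it at the same size (1.72, adjusted p = 1.19e-10). Without Runx1::Runx1t1 replicate 1 edgeR called it too (1.64, adjusted p = 0.00979) and also Ccr8 (2.08, 0.0492), and without Runx1::Runx1t1 replicate 2 it called Tnfrsf4 (1.79, 0.0121). DESeq2, which called 6.51% of genes, also called Areg (1.19, adjusted p = 0.0130) and Ccr8 (1.79, adjusted p = 0.0119), and edgeR called the same 3 members without a filter on low counts. With each clonotype counted once edgeR called Tnfrsf4 (1.67, adjusted p = 0.0144). Tnfrsf18, at 83.1 and 93.1 CPM against 74.0 and 80.0 CPM, differed by 0.13 (95% interval -0.01 to 0.28), and Ikzf2 by 0.03 (-0.46 to 0.52).

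**Figure D4:**
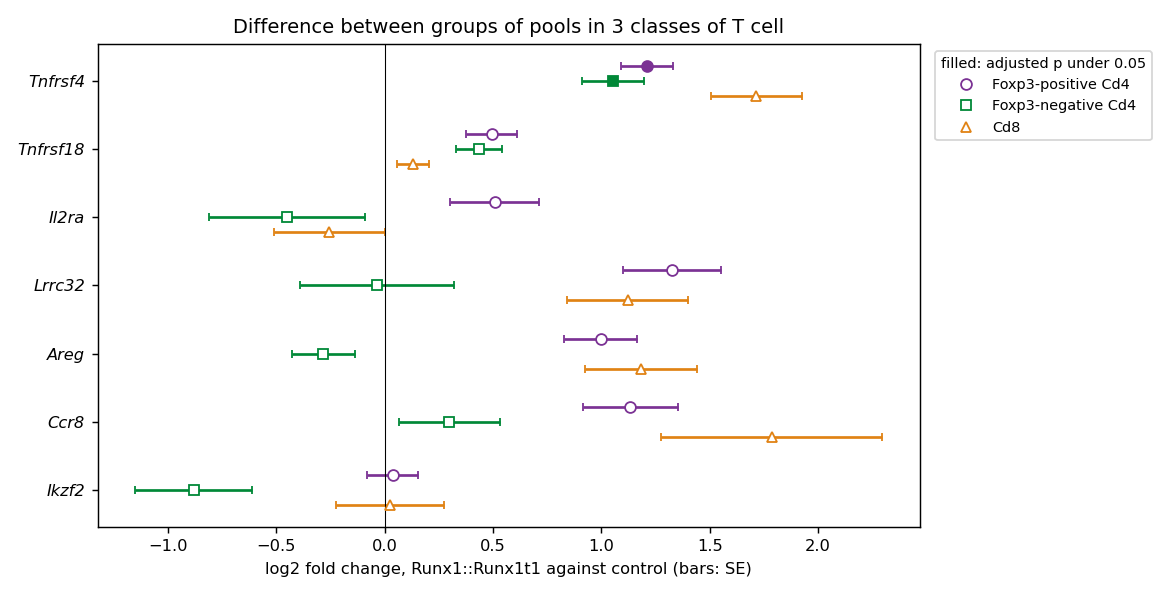
Difference between Runx1::Runx1t1 and control pools as log2 fold change (horizontal axis, bars are SE, 2 pools against 2) for 7 members in 3 classes of T cell, with filled points where the edgeR adjusted p was under 0.05. The filled points are Tnfrsf4 in Foxp3-positive Cd4 cells (1.21) and in Foxp3-negative Cd4 cells (1.05), while Areg was at 0.997 in the first class and at -0.28 in the second.

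Whether the group difference itself differed between the Cd4 classes was tested as an interaction. For 5 of the 7 members the difference between Runx1::Runx1t1 and control was greater inside the gate than outside, where edgeR called 1.42% of 10717 genes and 0.690% in this direction. Areg had the smallest p of the 7, with a log2 difference of differences of 1.33 (SE 0.15, edgeR adjusted p = 0.00101), and its call held in 15 of 15 alternatives. Ccr8 followed at 0.86 (SE 0.15, edgeR adjusted p = 0.0135), Il2ra at 1.02 (SE 0.20, edgeR adjusted p = 0.0276), Lrrc32 at 1.36 (SE 0.28, edgeR adjusted p = 0.0294) and Ikzf2 at 0.89 (SE 0.19, edgeR adjusted p = 0.0350). Tnfrsf4 at 0.18 (95% interval -0.04 to 0.39) and Tnfrsf18 at 0.08 (-0.08 to 0.25) were not called. For Ikzf2 the groups overlapped inside the gate, and both Runx1::Runx1t1 pools were below both control pools outside it. Cells outside the gate can include ones whose Foxp3 RNA was not read. At least 2 Foxp3 UMIs were held by 454 of 582 and 379 of 477 gated cells in the Runx1::Runx1t1 pools. In the control pools these were 161 of 218 and 155 of 219. The part of cells with unread Foxp3 in the interaction was not tested.

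With each clonotype counted once, Areg kept its call (edgeR adjusted p = 0.0241) and the other 4 did not, at 0.43 for Ccr8 (adjusted p = 0.459), 0.68 for Ikzf2 (0.110), 0.70 for Il2ra (0.234) and 1.15 for Lrrc32 (0.176). Without Runx1::Runx1t1 replicate 2 the calls of Il2ra (adjusted p = 0.0649) and Lrrc32 (0.116) were lost, and without control replicate 1 that of Lrrc32 was lost (0.159). With DESeq2 Il2ra was not called (adjusted p = 0.0534) and Lrrc32 had no adjusted p, and with no Cd3 UMI required edgeR did not call Ikzf2 (adjusted p = 0.0727) or Lrrc32 (0.0525). Ikzf2 kept its call without control replicate 1 at less than the size given above (0.42, 0.0480). In the same interaction 3 of 8 cycling genes (Ube2c, Birc5 and Ccnb2) were called lower and 3 of 7 genes of naive T cells (Ccr7, Klf2 and Il7r) were called higher, and their part in the result was not tested. Between Foxp3-positive Cd4 and Cd8 cells the interaction was called for Il2ra alone among the members, at 0.79 (SE 0.18, edgeR adjusted p = 0.0425), where 1.39% of 13136 genes were called and 0.457% in this direction. It was lost in 6 of 15 alternatives, among them without control replicate 2 (0.56, adjusted p = 0.337) and without Runx1::Runx1t1 replicate 1 (0.71, 0.104). Leaving out 1 pool also gave calls for other members in this interaction, in the opposite direction. Tnfrsf4 was called without control replicate 1 (-0.64, edgeR adjusted p = 0.0396), without Runx1::Runx1t1 replicate 1 (-0.46, 0.0487) and without Runx1::Runx1t1 replicate 2 (-0.52, 0.0264), Ccr8 without Runx1::Runx1t1 replicate 1 (-0.95, 0.00102) and Areg without control replicate 1 (-0.77, 0.0451). Tnfrsf18 was called higher without Runx1::Runx1t1 replicate 2 (0.53, edgeR adjusted p = 0.00742).

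The TCR libraries placed these cells in clonotypes, defined within a pool. Of Foxp3-positive Cd4 cells with a clonotype, 26.9% (95% Wilson interval 23.0% to 31.1%) and 27.2% (22.8% to 32.1%) were in clonotypes of at least 2 cells in the Runx1::Runx1t1 pools, and 22.5% (17.1% to 29.1%) and 12.4% (8.22% to 18.1%) in the control pools. The corresponding shares of Foxp3-negative Cd4 cells were 47.3% (44.9% to 49.7%) and 51.7% (49.2% to 54.2%) in the Runx1::Runx1t1 pools and 30.4% (27.3% to 33.7%) and 18.4% (15.7% to 21.5%) in the control pools. A clonotype with a Foxp3-positive Cd4 cell was shared by 78 of 1688 and 77 of 1503 Foxp3-negative Cd4 cells with a clonotype in the Runx1::Runx1t1 pools. In the control pools it was shared by 10 of 773 and 4 of 695. The Foxp3-positive Cd4 cells held 399 and 310 clonotypes in the Runx1::Runx1t1 pools and 165 and 162 in the control pools.

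In the sum of these 169 sharing cells, most of them from the Runx1::Runx1t1 pools, some members lay between the classes and others did not. Tnfrsf4 was at 590 CPM (exact Poisson 95% interval 547 to 635, counting error only), against 204 CPM in other Foxp3-negative Cd4 cells with a clonotype and 1135 CPM in Foxp3-positive ones. Ccr8 was at 90.4 CPM (74.1 to 109), against 37.6 and 327 CPM, Tnfrsf18 at 395 CPM (360 to 432), against 211 and 741 CPM, and Ikzf2 at 103 CPM (85.6 to 123), against 69.1 and 449 CPM. Il2ra at 19.4 CPM (12.3 to 29.2) and Lrrc32 at 5.91 CPM (2.38 to 12.2) were close to the 18.0 and 5.75 CPM of the other Foxp3-negative Cd4 cells, and Areg at 20.3 CPM (13.0 to 30.2) was below their 38.6 CPM. These are sums over cells with no test.

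Cd8 cells were also split by their clonotypes, into cells of clonotypes of at least 5 cells and cells of clonotypes of 1 cell. None of the 8 members passed the edgeR test for this split across the 4 pools, where 24.0% of 12677 genes were called. At an unadjusted p under 0.05, 1 member passed (Foxp3, -0.95, SE 0.39, edgeR adjusted p = 0.118), against 38.1% of all genes. DESeq2 called 0 of the other 7 and 26.3% of all genes. For Ikzf2 the pools went in opposite directions. It was at 59.1 and 144 CPM in the expanded cells of the Runx1::Runx1t1 pools, above the 28.7 and 25.2 CPM of their cells of clonotypes of 1 cell. In the control pools it was at 20.9 and 14.4 CPM in the expanded cells, below the 50.1 and 42.8 CPM of the other cells.

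The largest Cd8 clonotype of each Runx1::Runx1t1 pool stood above the rest for Ikzf2. In Runx1::Runx1t1 replicate 1 it had 111 cells with Ikzf2 at 223 CPM, against 37.2 CPM in the other expanded cells, and in replicate 2 it had 1093 cells with Ikzf2 at 170.0 CPM, against 121 CPM in the other expanded cells. With each clonotype counted once, Ikzf2 in Cd8 cells was at 30.7 and 35.1 CPM in the Runx1::Runx1t1 pools and at 49.6 and 40.7 CPM in the control pools. Both Runx1::Runx1t1 pools were then below both control pools, which they were not when every cell was counted.

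Foxp3 UMIs were also seen in 128 and 127 Cd8 cells of the Runx1::Runx1t1 pools and in 71 and 68 of the control pools. In these cells Tnfrsf4 was at 434 and 369 CPM in the Runx1::Runx1t1 pools and at 274 and 143 CPM in the control pools, against 8.47 and 8.69 CPM and 2.47 and 2.04 CPM in Cd8 cells without a Foxp3 UMI. Areg was at 129 and 110.3 CPM in the Runx1::Runx1t1 pools and at 123 and 79.9 CPM in the control pools, against at most 1.99 CPM without Foxp3. The Cd8 UMIs of these cells were 6.13 and 7.95 a cell in the Runx1::Runx1t1 pools and 5.22 and 6.37 in the control pools, against 9.05, 11.3, 7.32 and 8.07 in the other Cd8 cells in the same order. A single Cd8 UMI was held by 34.4% (95% Wilson interval 26.7% to 43.0%) and 36.2% (28.4% to 44.9%) of them in the Runx1::Runx1t1 pools and 38.0% (27.6% to 49.7%) and 27.9% (18.7% to 39.6%) in the control pools. Of the other Cd8 cells it was 8.28% (7.64% to 8.96%) and 5.83% (5.31% to 6.40%) in the Runx1::Runx1t1 pools and 14.1% (13.2% to 15.01%) and 11.4% (10.7% to 12.2%) in the control pools. The tests in Cd8 cells included these cells, and free RNA was not told apart from expression in them. Without them, Lrrc32 in Cd8 cells was at 0.329 and 0.349 CPM in the Runx1::Runx1t1 pools, against 0.953 and 0.961 CPM with them. In the control pools it was at 0.163 and 0.163 CPM, against 0.461 and 0.383 CPM. Areg was at 1.98 and 1.99 CPM against 4.03 and 3.84 CPM in the Runx1::Runx1t1 pools. Ikzf2 changed less there, at 31.6 and 58.5 CPM against 33.5 and 60.7 CPM.

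T cells without any co-receptor UMI held Foxp3 in 459 and 264 cells of the Runx1::Runx1t1 pools and in 188 and 221 of the control pools. With Foxp3, their levels of the members were near those of Foxp3-positive Cd4 cells, with Tnfrsf4 at 1260 and 1118 CPM in the Runx1::Runx1t1 pools and 634 and 450 CPM in the control pools. Areg was at 364 and 449 CPM against 209 and 189 CPM, and Ccr8 at 253 and 282 CPM against 201 and 159 CPM. Both Runx1::Runx1t1 pools lay above both control pools for each, and the share of all genes that did so in these cells was not counted. Lrrc32 was at 86.7 and 64.7 CPM against 72.1 and 35.8 CPM and Ikzf2 at 429 and 472 CPM against 457 and 314 CPM, with the groups overlapping. Il2ra was at 213 and 153 CPM against 154 and 139 CPM, also overlapping, and Tnfrsf18 at 662 and 613 CPM against 487 and 453 CPM. These cells entered the tests above only in the alternative that added them to the Foxp3-positive Cd4 class.

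**Figure D5:**
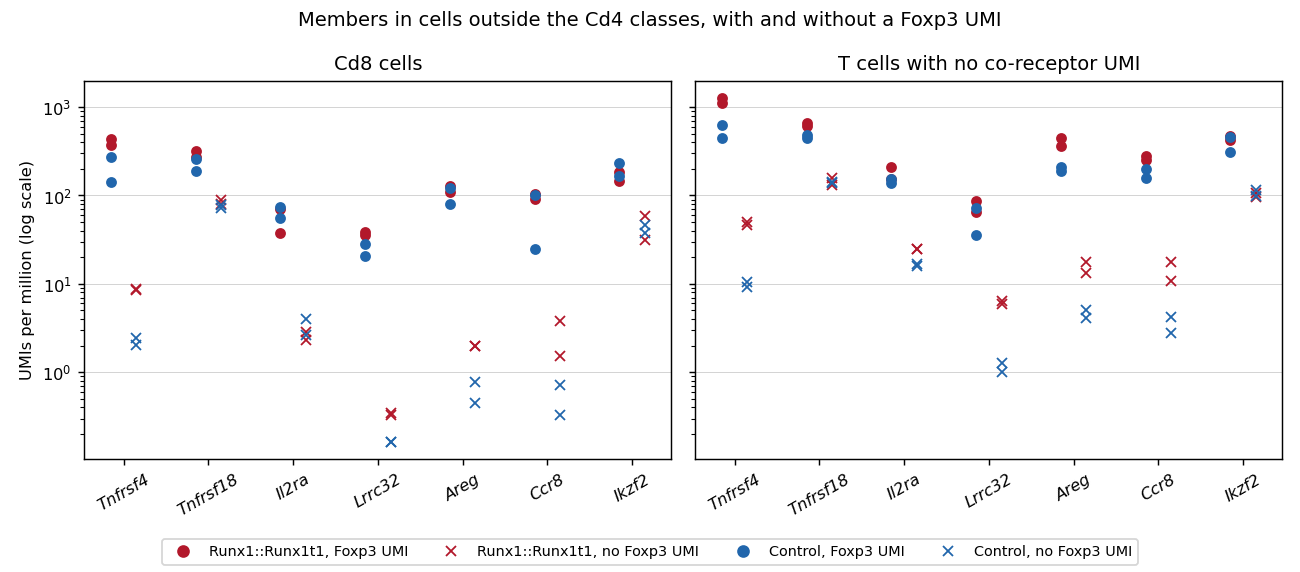
Levels of the 7 members, in CPM on a log axis, in Cd8 cells and in T cells without a co-receptor UMI, for cells with a Foxp3 UMI (circles) and without (crosses), with 1 point per pool (red, Runx1::Runx1t1; blue, control). In both panels every member lay higher in cells with a Foxp3 UMI, Tnfrsf4 for example at 143 to 434 CPM against 2.04 to 8.69 CPM among Cd8 cells.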

How the data were processed

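The deposited matrices hold UMI counts per gene and cell barcode, which the authors made with Cell Ranger 6.1.2 on GRCm38 according to the submitters' processing notes. The release of the gene annotation is not given in the sources used here. The deposited TCR tables gave each barcode's clonotype within its pool.

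Barcodes with fewer than 200 genes or with over 15% of their UMIs from mitochondrial genes were left out, and doublets were removed with Scrublet (scanpy 1.11.5) at an expected rate of 0.05, or as the top 5% of scores where the automatic cutoff marked under 0.5% of cells, which removed 4.22% to 5.40% of barcodes. Kept cells were gated on UMIs as described above. Counts were summed per pool and class and tested with edgeR 4.0.16 (R 4.3.3; TMM scaling, filterByExpr, glmQLFit, glmQLFTest), with the pool as a block between classes of the same pools and 2 pools against 2 between groups, and p-values were adjusted by Benjamini-Hochberg over all genes tested. A call is an adjusted p under 0.05. SEs were taken from the log2 fold change and its F statistic. Intervals of log2 differences were made from the SE with the multiplier of the normal distribution. They are therefore narrower than the test with few pools would give.

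On simulated counts with 100 genes changed 4-fold and 100 changed 2-fold, the test of Foxp3-positive against Foxp3-negative Cd4 cells recovered 93 and 61 with 10 false calls. That of the groups in Foxp3-positive Cd4 cells recovered 94 and 58 with 5 false calls. The counts were drawn from a single mean share per gene and the dispersion trend, without a dispersion of each gene. They do not show how the tests behave on genes that vary more between pools. DESeq2 1.42.0, other scaling, filters, gates, clonotype weighting and leaving out each pool were tried as alternatives. The members and lists were chosen with earlier results of these data known. Other genes were named by rule: from each list up to 4 called genes of largest change with the same direction in all 4 pools, outside the lists the 5 largest rises and falls, and the 3 genes most like each member. Some results of the lists are not reported here.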

Additional observations from a re-analysis of the deposited data

Results flagged for a closer look

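The group difference differed between Foxp3-positive and Foxp3-negative Cd4 cells by the interaction test for Il2ra (1.02 on the log2 scale), Ikzf2 (0.89), Lrrc32 (1.36), Areg (1.33) and Ccr8 (0.86), of which only Areg was still called with each clonotype counted once. Between Foxp3-positive Cd4 and Cd8 cells it differed for Il2ra (0.79), a call that was lost in 6 of 15 alternatives.

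Between expanded and single-cell clonotypes of Cd8 cells, both Runx1::Runx1t1 pools moved one way and both control pools the other for 4 members. The share of all genes that did so was not counted, so the number of members cannot be judged against it. The difference between the groups was not tested. As the log2 ratio in the Runx1::Runx1t1 pools minus that in the control pools, it was 3.11 for Ikzf2, 1.80 for Tnfrsf4, 0.83 for Tnfrsf18 and -1.70 for Il2ra. The Tnfrsf4 value rests on 1 and 5 UMIs in the expanded cells of the control pools. The Il2ra value rests on 7 and 13 UMIs there, and on 17 and 15 in the expanded cells of the Runx1::Runx1t1 pools.

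In cells outside the compared classes, some members were more than 2-fold higher in both Runx1::Runx1t1 pools than in either control pool, as were 1.91% of genes in T cells without a co-receptor UMI, 0.493% in cells with both Cd4 and Cd8 UMIs and 2.54% in barcodes without a Cd3 UMI, among genes with over 3 UMIs in each pool. In T cells without a co-receptor UMI the ratio of the Runx1::Runx1t1 to the control mean was 4.83 for Foxp3, 5.14 for Lrrc32, 5.62 for Areg, 4.80 for Ccr8 and 6.79 for Tnfrsf4. The share of these cells with a Foxp3 UMI was 15.3% (95% Wilson interval 14.0% to 16.6%) and 13.7% (12.3% to 15.3%) in the Runx1::Runx1t1 pools and 3.99% (3.46% to 4.58%) and 4.97% (4.37% to 5.65%) in the control pools, and within the cells with a Foxp3 UMI Tnfrsf4 was at 1260 and 1118 CPM against 634 and 450 CPM, while the groups overlapped for Lrrc32. In cells with both Cd4 and Cd8 UMIs it was 3.44 for Lrrc32 and 2.48 for Tnfrsf4. In barcodes without a Cd3 UMI it was 3.29 for Foxp3, 2.97 for Ikzf2, 5.70 for Lrrc32 and 3.56 for Tnfrsf4, at levels that include free RNA. Both Lrrc32 ratios rest on few UMIs in the control pools, which held 211 and 152 Lrrc32 UMIs in all. Of these, 1.90% and 5.92% lay in barcodes without a Cd3 UMI, and 3.79% and 5.26% in cells with both Cd4 and Cd8 UMIs.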

How the results depend on the processing

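With 2 pools a group and an exact test that cannot go below 0.333, the group comparisons rest on the spread shared across genes, and leaving out 1 pool leaves a lone pool assumed to vary like the others. Lrrc32 in Cd8 cells rested on 19 to 56 UMIs a pool. In the class contrasts of Foxp3-positive Cd4 cells, 105 of 105 values of the members kept direction and call against Foxp3-negative Cd4 cells, as did 105 of 105 against Cd8 cells, and for Foxp3-negative Cd4 against Cd8 cells 86 of 91 did. In the group comparisons, the values that kept direction and side of the threshold were 74 of 105 for Foxp3-positive Cd4, 72 of 91 for Foxp3-negative Cd4, 77 of 91 for all Cd4 and 73 of 91 for Cd8 cells. Unless a value shows it, the cause was not tested.

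The count of genes called between the groups in Foxp3-positive Cd4 cells, 11, became 0 without a filter on low counts (1146 at an unadjusted p under 0.05, and 57 by DESeq2), 57 with DESeq2, 56 with doublets kept, 18 with cells under 500 genes or over 5% mitochondrial left out, 26 with at least 2 Foxp3 UMIs, 340 with Foxp3-positive T cells without a co-receptor UMI added (chosen after seeing the data), and 86 to 467 without 1 pool. In Foxp3-negative Cd4 cells, 342 became 795 without a filter, 108 with each clonotype once and 323 to 866 without 1 pool, and in all Cd4 cells 246 became 84 to 301 without 1 pool. In Cd8 cells, 16 became 864 without a filter, 868 with DESeq2, 8 with no Cd3 UMI required, 407 with each clonotype once, 7 without cells holding a basophil or mast cell UMI (chosen after seeing the data), and 3 to 1616 without 1 pool. The interaction between the Cd4 classes, 152, became 395 without a filter, 65 with DESeq2, 34 with each clonotype once, 269 with the cells without co-receptor added, and 97 to 425 without 1 pool. That between Foxp3-positive Cd4 and Cd8 cells, 182, became 476 without a filter, 111 with DESeq2, 286 with at least 2 Foxp3 UMIs and 139 to 523 without 1 pool. Without 1 pool, the class contrasts gave 1497 to 2217 (Foxp3-positive against Foxp3-negative Cd4), 2577 to 3659 (Foxp3-negative Cd4 against Cd8) and 854 to 2864 (expanded against single Cd8). The Foxp3 share differed by 5.56 points with each clonotype once, -1.18 with only Foxp3-positive cells without co-receptor added, and 0.0285 to 2.94 without 1 pool.

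The replicate numbers tie no samples together in the labels. For each gene, the log2 CPM difference of replicate 1 from replicate 2 was taken within each group. Over the genes, the differences of the 2 groups correlated at 0.150 in both Cd4 classes and 0.269 in Cd8 cells. With the replicate number as a block the counts were 115 in Foxp3-positive Cd4, 415 in Foxp3-negative Cd4, 409 in all Cd4 and 939 in Cd8 cells, 192 for the interaction between the Cd4 classes and 574 for that with Cd8 cells. Under the block edgeR also called Areg, Lrrc32 and Ccr8 in Foxp3-positive Cd4, Tnfrsf18 in Foxp3-negative Cd4, Tnfrsf18, Lrrc32 and Ccr8 in all Cd4, Tnfrsf4 (1.73) and Areg (1.21) in Cd8 cells, and Tnfrsf4, Tnfrsf18 and Ccr8 in the interaction with Cd8 cells. The block left the difference in the Foxp3 share at 1.49 points. Without the pool block the class contrasts called 1834, 4784 and 2820 genes, and expanded against single Cd8 3643. Under the replicate block Lrrc32 turned to 0.01 in Foxp3-negative Cd4 and Ikzf2 to -0.01 in Cd8 cells, and without the pool block Lrrc32 turned to 0.15 in expanded against single Cd8.

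Single uncalled members turned sign elsewhere. Ikzf2 turned to -0.01 in Foxp3-positive Cd4 with at least 2 Foxp3 UMIs. In Foxp3-negative Cd4, Lrrc32 turned to 0.06 with no Cd3 UMI required and 0.23 with each clonotype once, and Areg to 0.05 with each clonotype once. In Cd8 cells with each clonotype once, Il2ra turned to 0.00 and Ikzf2 to -0.47, and Ikzf2 to -0.01 without basophil or mast cell UMIs. Tnfrsf4 turned to -0.01 in the interaction of the Cd4 classes with each clonotype once, and Lrrc32 to -0.08 in that with Cd8 cells with the cells without co-receptor added. In expanded against single Cd8, DESeq2 turned Ikzf2 to -0.13 and Lrrc32 to 0.04, and expansion set at 2 cells turned Lrrc32 to 0.54 and Areg to 0.20. Without 1 pool, values spanned 0 for Ikzf2 in Foxp3-positive Cd4 (-0.07 to 0.16), for Il2ra (-1.22 to 0.05), Lrrc32 (-0.45 to 0.61) and Ccr8 (-0.01 to 0.73) in Foxp3-negative Cd4, for Il2ra in all Cd4 (-0.34 to 0.56), for Ikzf2 in Cd8 (-0.40 to 0.36), for Ikzf2 (-0.22 to 0.39) and Areg (-0.77 to 0.48) in the interaction with Cd8, and for Il2ra (-0.81 to 0.23), Ikzf2 (-0.43 to 0.81), Lrrc32 (-0.18 to 0.23) and Tnfrsf18 (-0.11 to 0.17) in expanded against single Cd8.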
